A study of Mus musculus with 18 samples.

Results

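The heat shock proteins and molecular chaperones of the mouse kidney were followed here in Aprt KO mice and their littermates at both ages of the study. The members were all probe sets whose only gene symbol in the platform annotation began with Hspa, Hspb, Hspd, Hspe, Hsp90, Hsph, Dnaja, Dnajb, Dnajc, Pdia or Fkbp, or with Cct and a digit. This rule gave 70 of the 8251 genes with a single symbol, read by 95 of the 12488 probe sets, and used no measured value. Kidney RNA from 18 mice labelled as strain C57 was hybridised, with 1 array per mouse. The groups were 3 Aprt KO (Aprt-/-) mice and 3 control (Aprt+/+) littermates aged 1 month, and 6 Aprt KO mice and 6 control littermates aged 7 days. Littermates of matched sex formed pairs 1 to 6 at 7 days and pairs 7 to 9 at 1 month. Pairs 2, 3, 5 and 7 were female and the others male. No treatment is named, and the KO allele is not described further in the labels. Aprt encodes the enzyme that salvages adenine, and mice that lack it turn adenine into a compound that forms kidney stones.

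Chaperones bind unfolded proteins and help them to reach or regain their native shape. In the cytosol and in mitochondria the Hsp70 proteins take clients from J proteins (Dnaja, Dnajb and Dnajc) and pass some of them on to Hsp90 or to a ring-shaped chaperonin, which is CCT in the cytosol and Hspd1 with its lid Hspe1 in mitochondria. In the endoplasmic reticulum the Hsp70 protein Hspa5 and the Hsp90 protein Hsp90b1 work beside the disulfide isomerases (Pdia) and the prolyl isomerases of the Fkbp family, whose secreted clients include collagens. Heat shock factor induces the cytosolic set, and the unfolded protein response induces the endoplasmic reticulum set.

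Of the 95 probe sets, 78 passed a filter at a mean signal of 118.6, the 40th percentile of all probe sets, and entered the fit, covering 63 of the 70 genes. They were 29 of 37 J protein, 12 of 12 Fkbp, 11 of 12 CCT, 11 of 14 Hsp70, 6 of 6 Pdia, 3 of 6 small heat shock, 2 of 3 Hsp90 and 2 of 3 chaperonin probe sets, the 1 probe set of the Hsp110 protein Hsph1, and the 1 probe set of Hspbp1, a nucleotide exchange factor of Hsp70 that shares a prefix with the small heat shock proteins. Apart from Hspbp1 these families follow the gene prefix and not protein structure, so that Hspa4 counts with Hsp70 and Hspb11 with the small heat shock proteins. The 17 members below the filter had mean signals from 10.46 to 115.6. Dnajb3, Dnajb5, Dnajb8, Dnajc11, Hspa1l, Hspa2 and Hspb1 had no probe set above it. Hspb1, a heat-inducible small heat shock protein, had a signal of 20.9 ± 14.6 in 1-month Aprt KO, 19.6 ± 11.8 in 1-month control (SD, n = 3), 32.0 ± 19.9 in 7-day Aprt KO and 35.6 ± 12.2 in 7-day control kidneys (SD, n = 6). Hsp90ab1 and Fkbp10 were not analysed here.

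Aprt, the deleted gene, was dim. Its brightest probe set, below the filter, read 52.2 to 86.5 in the arrays labelled 1-month Aprt KO and 103.9 to 109.5 in 1-month controls, and 41.9 to 135.4 in the arrays labelled 7-day Aprt KO against 51.3 to 148.2 in 7-day controls. In a fit without the filter it had log2 fold changes of -0.58 (SE 0.23, limma adjusted p 0.425) at 7 days and -0.54 (SE 0.33) at 1 month, neither called. The other Aprt probe sets were dimmer still, with 0.10 (SE 0.13) and 0.13 (SE 0.14) at 7 days, and -0.12 (SE 0.19) and -0.07 (SE 0.20) at 1 month. In 4 arrays the brightest Aprt probe set was nearer the median of the opposite genotype at that age. These were the 7-day controls of pairs 1 and 2, the 7-day Aprt KO of pair 4 and the 1-month Aprt KO of pair 7. Median signals of the 18 arrays ran from 160.1 to 216.4. Both arrays of pair 4 stood apart, with a highest signal of 10167 (Aprt KO) and 10767 (control) against 25718 to 51453 on the others.

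In 7-day kidneys few chaperones differed detectably between Aprt KO and control mice. Of the 78 probe sets 1 rose and 0 fell in Aprt KO kidneys at a limma adjusted p under 0.05, which is 1.28%, beside 2.73% of all 7464 probe sets tested (204, with 2.25% higher and 0.482% lower in Aprt KO). Without an adjustment 5 of the 78 had a p under 0.05. The log2 fold change was smaller than 0.25 in either direction for 74 of the 78, with a median of -0.01 that was the same over all probe sets, and the median standard error was 0.14. The single rise was Fkbp5, a prolyl isomerase that binds Hsp90 in steroid receptor complexes and is a known glucocorticoid target.

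Fkbp5 (chr17:28398753-28486149, GRCm38.p6) read 742.1, 665.5, 571.4, 836.1, 732.4 and 666.2 in the 7-day Aprt KO mice of pairs 1 to 6, against 383.6, 507.9, 421.1, 592.4, 414.2 and 523.1 in their control littermates. The Aprt KO mouse was higher in 6 of 6 pairs, and the groups overlapped only where the lowest Aprt KO array (pair 3) fell below the highest control (pair 4). The log2 fold change was 0.55 (SE 0.13, limma adjusted p 0.0284, against 0.00139 in the blocked fit, which has a term for each litter pair). The call was lost in 14 of 39 alternatives, with log2 fold changes from 0.47 to 0.60 and adjusted p up to 0.237. It was lost without either array of pair 1 or pair 5, without the Aprt KO array of pair 2 or pair 4, and without the control of pair 3. It was also lost without pairs 1, 2, 4, 5 or 6 as a whole (0.0502 without pair 4), without a sex term (0.112), and without the 4 arrays named above (0.237).

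The other cochaperone of steroid receptors in the family, Fkbp4, was not called, and its 2 probe sets had log2 fold changes of -0.04 (SE 0.10) and -0.08 (SE 0.15). On the list of known glucocorticoid-responsive genes, 2 of 10 probe sets rose at 7 days, those of Fkbp5 and of Errfi1, a feedback inhibitor of the Egf receptor (0.44, SE 0.10, limma adjusted p 0.0229), and 0 fell. The probe set of the clock gene Per1 on that list had 0.16 (SE 0.29). Over the list 5 of 10 log2 fold changes were above 0, with a median of 0.05. No other probe set of the list was called. The Aprt KO mouse was higher in 6 of 6 pairs for Dusp1 and for the second probe set of Errfi1. It was higher in 3 of 6 for Per1, in 2 for Sgk1, and in 3 and 2 for the probe sets of Klf9. Mt1 and Mt2, also listed, were higher in the Aprt KO mouse of 0 of 6 pairs. Their mean signals were 9249 and 10180 in 7-day Aprt KO and 10620 and 11170 in 7-day control kidneys. Myeloid markers moved with genotype at this age: 8 of 10 probe sets rose, and the summed signal of 11 of the 12 listed genes ran from 6772 to 9931 in Aprt KO and from 2987 to 4814 in control kidneys. The part of these cells in the Fkbp5 difference was not tested. In whole kidney, fewer cells of a type and less RNA per cell cannot be told apart.

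With the litter pair as a block, which called 7.56% of all probe sets, 2 more members passed. Hspb8, a small heat shock protein that works with Bag3 in the clearance of misfolded proteins, read 500.6, 583.4, 483.2, 618.2, 594.2 and 578.7 in 7-day Aprt KO mice and 454.4, 456.8, 363.8, 355.0, 358.1 and 506.9 in control littermates. It was higher in the Aprt KO mouse of 6 of 6 pairs, while the groups overlapped. The log2 fold change of 0.41 (SE 0.14) had a limma adjusted p of 0.196, and of 0.0217 with the block. Its partner Bag3 had 2 probe sets with log2 fold changes of 0.10 (SE 0.18) and 0.07 (SE 0.19).

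Dnaja3, the J protein of the mitochondrial matrix, was the second. It read 1164, 1324, 1379, 1132, 1414 and 1215 in 7-day Aprt KO mice and 1461, 1426, 1537, 1365, 1566 and 1457 in control littermates. The Aprt KO mouse was lower in 6 of 6 pairs, and only its pair 5 and pair 3 arrays reached into the control range. The log2 fold change was -0.21 (SE 0.07, limma adjusted p 0.211, and 0.0389 with the block).

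Of the other mitochondrial members, Hspa9, the matrix Hsp70, and Hspe1 were also lower in the Aprt KO mouse of 6 of 6 pairs, with log2 fold changes of -0.19 (SE 0.10, limma adjusted p 0.651) and -0.14 (SE 0.14, 0.959) that did not pass with or without the block. Hspd1 had 0.11 (SE 0.19) and was higher in 3 of 6 pairs. Dnajc15 had -0.24 (limma adjusted p 0.475). Its Aprt KO mouse was higher in pair 3 (772.1 against 679.3 in the control littermate) and lower in the other pairs. The share of all probe sets with 6 of 6 pairs on 1 side was not counted, so the pair counts given here are descriptions. Grpel1, the nucleotide exchange factor of the matrix Hsp70, lies outside the prefixes and fell: its signal was 558.1 ± 90.1 in 7-day Aprt KO and 735.9 ± 54.3 in control kidneys (SD, n = 6), and the log2 fold change was -0.39 (SE 0.10, limma adjusted p 0.0370). The summed signal of proximal tubule markers was 23120 to 39370 in Aprt KO and 31780 to 45970 in control kidneys at this age, with 0 of 7 probe sets called, and that of loop of Henle and distal tubule markers 10790 to 14800 in Aprt KO and 14800 to 18710 in control kidneys, with 2 of 9 falling. Their part in the mitochondrial values was not tested.

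**Figure D1:**
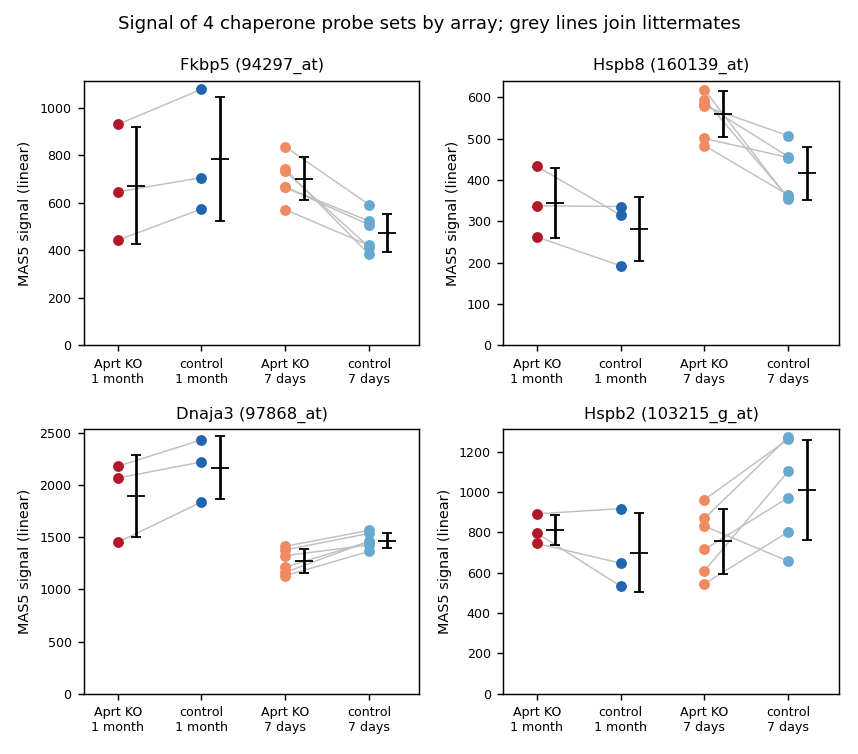
MAS5 signal on a linear axis for Fkbp5, Hspb8, Dnaja3 and Hspb2 in every array, with 1-month Aprt KO, 1-month control, 7-day Aprt KO and 7-day control from left to right. Dots are mice, grey lines join littermates, and bars give the mean ± SD; at 7 days all 6 lines of Fkbp5 and Hspb8 are higher at the Aprt KO end, and all 6 lines of Dnaja3 are lower there.

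Among the small heat shock proteins Hspb2, known mainly from muscle, had the opposite sign to Hspb8. Its brighter probe set read 755.1 ± 160 in 7-day Aprt KO and 1011 ± 248 in control kidneys (SD, n = 6), and the log2 fold change was -0.40 (SE 0.17, limma adjusted p 0.387). Cryab, a small heat shock protein outside the prefixes, fell: it read 241.0 ± 44.3 in Aprt KO and 444.0 ± 117 in control kidneys (SD, n = 6), and the log2 fold change was -0.79 (SE 0.16, limma adjusted p 0.00938). It was lower in 6 of 6 pairs. Its second probe set lay below the filter. The annotated span of Cryab (chr9:50745951-50756636) contains that of Hspb2 (chr9:50751072-50752354, both GRCm38.p6), and whether the probe sets read separate transcripts was not tested. Smooth muscle markers rose in 3 of 6 probe sets at 7 days, with a summed signal of 8550 to 11020 in Aprt KO and 5598 to 8057 in control kidneys. Skeletal muscle markers had 0 of 7 called in limma and 0 with an unadjusted p under 0.05, with sums of 727.9 to 3670 in Aprt KO and 582.7 to 3382 in control kidneys. Of the loop of Henle and distal tubule markers 2 of 9 probe sets fell, and of the collecting duct markers 1 of 4. The part of any of these cell types in the Hspb2 and Cryab values was not tested. Clu, an extracellular chaperone of injured tubules, rose by 2.02 (SE 0.14) and 1.73 (SE 0.14) on the log2 scale in its 2 probe sets, with limma adjusted p of 4.46e-08 and 4.13e-07.

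Few members of either inducible programme were called at 7 days. On a list of heat shock factor targets, 0 of 19 probe sets rose and 1 fell (Cryab), with a median log2 fold change of -0.01. Hspa1a, the inducible Hsp70, read 681.5 ± 120 in 7-day Aprt KO and 816.2 ± 111 in control kidneys (SD, n = 6; log2 fold change -0.26, SE 0.13, limma adjusted p 0.568), and its near-identical copy Hspa1b 1094 ± 199 and 1134 ± 312 (-0.01, SE 0.19). The probes may not tell these copies apart. Hsph1 had -0.20 (SE 0.10), Dnajb1, the inducible J protein, 0.01 (SE 0.10), Hsp90aa1 0.08 (SE 0.13) and the constitutive Hsp70 Hspa8 0.07 (SE 0.16).

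On the list of unfolded protein response and endoplasmic reticulum folding genes, 0 of 31 probe sets were called at 7 days in limma, and 0 had an unadjusted p under 0.05. Hspa5 averaged 4129 ± 812 in Aprt KO and 4155 ± 1030 in control kidneys (SD, n = 6), with a log2 fold change of 0.00 (SE 0.15). Hsp90b1 had -0.08 (SE 0.12), Pdia3, a disulfide isomerase of glycoprotein folding, -0.15 (SE 0.15), and Pdia4 -0.04 (SE 0.14). The response's transcription factors Xbp1 and Atf4 had 0.14 (SE 0.10) and 0.00 (SE 0.14). Xbp1 was higher in the Aprt KO mouse of 6 of 6 pairs and Atf4 of 3 of 6, and neither was called with or without the block. Of the 9 probe sets of collagen folding genes 0 were called in limma, and 2 had an unadjusted p under 0.05.

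At 1 month 0 of the 78 chaperone probe sets were called between Aprt KO and control kidneys in limma, beside 0.201% of all probe sets (15 of 7464), and 0 of the 78 had an unadjusted p under 0.05. With the litter pair as a block, which called 1.22% of all probe sets, the count was also 0. Log2 fold changes lay between -0.32 and 0.32, with 73 of 78 smaller than 0.25 in either direction and a median standard error of 0.19. Of all probe sets 0.188% were higher and 0.0134% lower in Aprt KO kidneys. Fibroblast and matrix markers moved with genotype at this age (6 of 13 probe sets rose), with a summed signal of 8956 to 10500 in Aprt KO and 4340 to 5555 in control kidneys, while 0 of the 9 collagen folding probe sets were called.

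Fkbp5 read 442.5, 929.8 and 646.2 in the 1-month Aprt KO mice of pairs 7, 8 and 9, against 574.4, 1078 and 706.2 in their control littermates. Here the Aprt KO mouse was lower in 3 of 3 pairs, while the groups overlapped over most of their range (log2 fold change -0.23, SE 0.19, limma adjusted p 1). Hspb8 read 337.7, 432.9 and 262.1 in Aprt KO and 335.9, 315.0 and 192.6 in control mice. The Aprt KO mouse was higher in 3 of 3 pairs, with overlap between the groups (log2 fold change 0.28, SE 0.20). Dnaja3 had -0.20 (SE 0.10) and was lower in the Aprt KO mouse of 3 of 3 pairs.

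The test of whether the genotype effect differed between the ages called 0 of 78 members, beside 0.375% of all probe sets (0.134% with a positive and 0.241% with a negative difference), and 2 members had an unadjusted p under 0.05 in limma. The larger was Fkbp5, whose genotype effect at 1 month minus that at 7 days was -0.78 on the log2 scale (SE 0.23, limma adjusted p 0.285). With the litter pair as a block, which called 1.37% of all probe sets, Fkbp5 passed at 0.0207 and no other member did. The second was Hspb2, at 0.63 (SE 0.29, adjusted p 0.931).

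**Figure D2:**
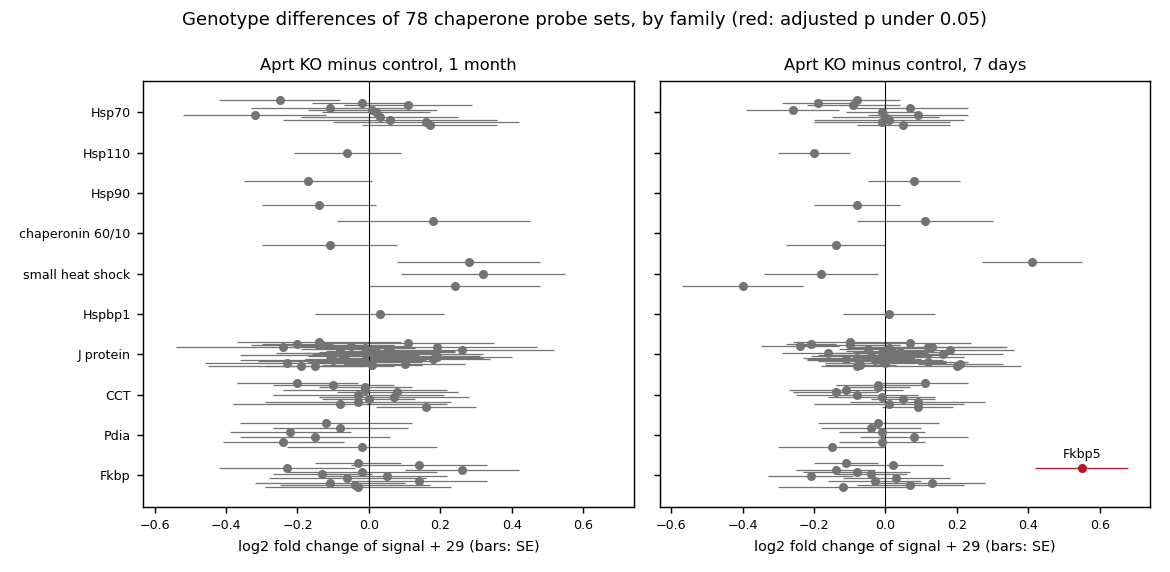
Log2 fold change of signal + 29 between Aprt KO and control for the 78 chaperone probe sets above the filter, by family, at 1 month (left) and 7 days (right). Points are probe sets and bars are standard errors; Fkbp5 at 7 days, at 0.55 and in red, is the one called probe set, and at 1 month all lie between -0.32 and 0.32.

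Age moved many more chaperones than genotype did. In Aprt KO kidneys 24 of the 78 probe sets (30.8%) were called between 1 month and 7 days in limma, 8 higher and 16 lower at 1 month, beside 37.8% of all probe sets (14.0% higher, 23.8% lower). In control kidneys 25 of 78 (32.1%) were called, 5 higher and 20 lower, beside 38.3% of all (13.7% higher, 24.6% lower). Neither share exceeded that of all probe sets. The lists of the 2 genotypes had 17 probe sets in common, 70.8% of the Aprt KO list and 68% of the control list, beside 80.5% and 79.6% over all probe sets. All 17 had the same sign in both, as had 2272 of the 2273 shared over all probe sets. The lists rest on different arrays but on littermates, whose deviations correlate, and on the same sex terms, so this overlap is a description. The counts rested on few 1-month arrays: they were 11 in Aprt KO without the female of pair 7, and in control kidneys 9 without the female of pair 7 and 16 without the male of pair 8. Ages were compared at an equal mix of the sexes, so the females of pair 7 together weighed as much as all 1-month males. Age and any batch of arrays cannot be told apart here.

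The direction of these calls depended on how the arrays were scaled. The deposited signals share a trimmed mean, and the median of all probe sets was lower at 1 month by that scaling, with log2 fold changes of -0.12 in Aprt KO and -0.11 in control kidneys. Quantile normalisation moved it to 0.01 and 0.02, and scaling to a common median to 0.12 and 0.13. With the common median, 17 members were higher and 6 lower in Aprt KO (24.1% and 13.1% of all probe sets), and 19 higher and 3 lower in control kidneys (24.0% and 14.3% of all). With quantile normalisation the counts were 10 and 18 in Aprt KO (16.4% and 18.5% of all), and 11 and 14 in control kidneys (16.0% and 19% of all). A gene is therefore said below to have risen or fallen with age only where it was called under all 3 scalings, and calls of the deposited signals alone are named as such. That held for 7 rises (8.97%) and 6 falls (7.69%) in Aprt KO kidneys, beside 12.8% and 13.0% of all probe sets, and for 5 rises (6.41%) and 3 falls (3.85%) in control kidneys, beside 12.3% and 14.1%. Of these, 6 were called in both genotypes: Fkbp2, Dnaja3, Dnajc13 and Dnajc3 rose, and Fkbp7 and Pdia4 fell.

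Fkbp7, a calcium-binding prolyl isomerase of the endoplasmic reticulum (chr2:76663034-76673098, GRCm38.p6), fell furthest. It read 101.3, 119.5 and 167.5 in 1-month Aprt KO kidneys, against 235.7, 326.1 and 387.4 (lowest, median and highest) at 7 days. In control kidneys it read 119.9, 91.9 and 129.7 at 1 month, against 300.4, 323.1 and 353.9 (lowest, median and highest) at 7 days. In each genotype every 1-month array lay below every 7-day array. The log2 fold changes were -1.18 (SE 0.17, limma adjusted p 2.2e-05) in Aprt KO and -1.35 (SE 0.17, 4.72e-06) in control kidneys, and the call held in all 37 alternatives in each genotype.

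Pdia4, a disulfide isomerase with several thioredoxin-like domains, read 836.9, 583.1 and 323.6 in 1-month Aprt KO kidneys, against 917.9, 1033 and 1178 (lowest, median and highest) at 7 days. In control kidneys it read 877.1, 546.5 and 394.6 at 1 month, against 796.1, 1117 and 1184 at 7 days. The ages did not overlap in Aprt KO kidneys and overlapped in controls, where the 1-month female of pair 7 lay above the lowest 7-day array. In both genotypes the female of pair 7 was the highest of the 1-month mice. The log2 fold changes were -0.74 (SE 0.17, limma adjusted p 0.00207) and -0.70 (SE 0.17, 0.00318) in Aprt KO and control kidneys.

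Other folding enzymes of the endoplasmic reticulum were lower at 1 month in the deposited signals. Of 20 probe sets placed in this compartment, 7 were called lower and 2 higher in each genotype, beside 23.8% (Aprt KO) and 24.6% (control) of all probe sets lower and 14.0% and 13.7% higher. Under all 3 scalings 5 of 20 fell in Aprt KO, beside 13.0% of all probe sets, and 3 of 20 in control kidneys, a share near the 14.1% of all. Those of Aprt KO were Fkbp7, Pdia4, the disulfide reductase Dnajc10 (-0.56, SE 0.10) and 2 of 3 probe sets of Pdia6 (-0.84, SE 0.19, and -0.70, SE 0.15, with -0.31 in the third). Those of control kidneys were Fkbp7, Pdia4 and the prolyl isomerase Fkbp9 (-0.85, SE 0.14). Pdia5, lower by -0.77 (SE 0.21) in Aprt KO and -0.67 (SE 0.21) in control kidneys in the deposited signals, was not called under all of them. No difference between the genotypes in these changes was called in the interaction test.

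Hspa5 and Hsp90b1, the central chaperones of the same compartment, did not pass. Hspa5 read 3282, 2795 and 3468 in 1-month Aprt KO kidneys, against 3150, 4046 and 5518 (lowest, median and highest) at 7 days, and the ages overlapped (log2 fold change -0.37, SE 0.19, limma adjusted p 0.143). In control kidneys its log2 fold change was -0.40 (SE 0.19, 0.115). Hsp90b1 had -0.27 (SE 0.14) in Aprt KO and -0.21 (SE 0.14) in control kidneys.

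Beside them, the endoplasmic reticulum list outside the prefixes moved both ways. Serpinh1, the collagen-specific chaperone, read 1625 ± 7.39 in 1-month Aprt KO kidneys (SD, n = 3) against 4360 ± 377 at 7 days (SD, n = 6), and 1506 ± 129 in 1-month control kidneys (SD, n = 3) against 4074 ± 466 at 7 days (SD, n = 6). It fell under all 3 scalings, by 1.41 and 1.42 on the log2 scale in Aprt KO and control kidneys in the deposited signals. Herpud1, a component of endoplasmic reticulum-associated degradation, rose under all 3, by 1.16 (SE 0.15) in Aprt KO and 1.46 (SE 0.15) in control kidneys. Fibroblast and matrix markers moved with age too, with a summed signal of 8956 to 10500 at 1 month against 26360 to 32090 at 7 days in Aprt KO kidneys, and of 4340 to 5555 against 22270 to 30170 in control kidneys. Of their 13 probe sets, 9 fell in Aprt KO and 11 in control kidneys under all 3 scalings. Their part in the falls of Fkbp7, Pdia4 and Serpinh1 was not tested.

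The rises included 2 members of the endoplasmic reticulum. Fkbp2, a small luminal prolyl isomerase, read 3206, 2846 and 2348 in 1-month Aprt KO kidneys, against 1536, 1741 and 1813 (lowest, median and highest) at 7 days. In control kidneys it read 2975, 2964 and 2575 at 1 month, against 1701, 1819 and 2143 at 7 days, so that the ages did not overlap in either genotype. The log2 fold changes were 0.72 (SE 0.11, limma adjusted p 4.76e-05) and 0.64 (SE 0.11, 0.000171) in Aprt KO and control kidneys, and the call held in all 38 alternatives in each.

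Dnajc3, a luminal J protein that binds unfolded clients and inhibits a kinase of the unfolded protein response, rose in 1 of its 3 probe sets above the filter. That probe set read 856.6, 1142 and 1153 in 1-month Aprt KO kidneys, against 521.0, 662.3 and 961.1 (lowest, median and highest) at 7 days, with overlap (log2 fold change 0.50, SE 0.16, limma adjusted p 0.0183). In control kidneys the log2 fold change was 0.42 (SE 0.16, 0.0445), and this call was lost in 22 of 38 alternatives, with adjusted p up to 0.240. The other 2 had 0.28 (SE 0.15) and 0.20 (SE 0.21) in Aprt KO, and 0.39 (SE 0.15) and 0.43 (SE 0.21) in control kidneys.

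**Figure D3:**
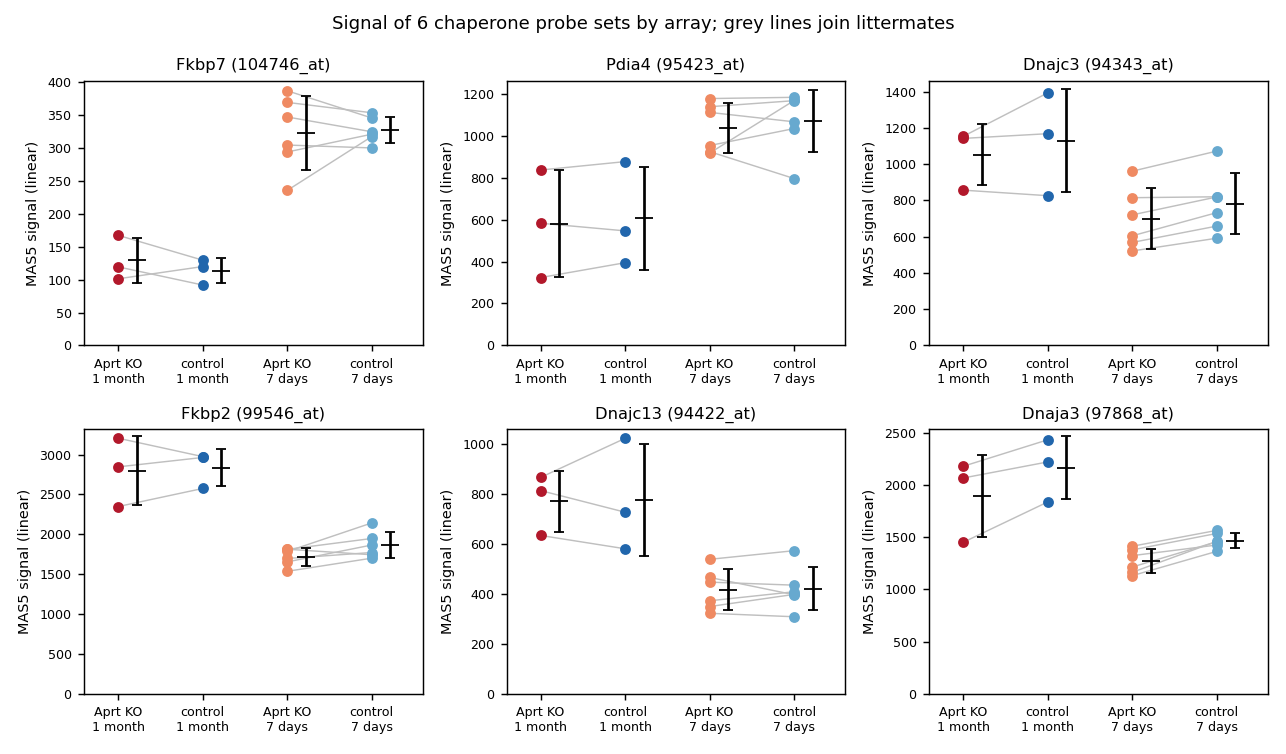
MAS5 signal on a linear axis for the 6 probe sets called with age in both genotypes under all 3 scalings, in every array, with the 1-month groups left of the 7-day groups. Dots are mice, grey lines join littermates, and bars give the mean ± SD; Fkbp7 and Pdia4 sit lower at 1 month, and Dnajc3, Fkbp2, Dnajc13 and Dnaja3 sit higher.

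The 5 mitochondrial probe sets above the filter had positive log2 fold changes between 1 month and 7 days in both genotypes, also in the deposited signals, where the median of all probe sets was negative. A second, dim probe set of Hspd1, below the filter, had -0.31 (SE 0.39) in Aprt KO and -0.13 (SE 0.39) in control kidneys. Dnaja3 rose in both. It read 1451, 2180 and 2068 in 1-month Aprt KO kidneys, against 1132, 1269 and 1414 (lowest, median and highest) at 7 days, and 1838, 2434 and 2222 in 1-month control kidneys, against 1365, 1459 and 1566 at 7 days. The ages did not overlap, and the log2 fold changes were 0.48 (SE 0.09, limma adjusted p 0.000434) in Aprt KO and 0.47 (SE 0.09, 0.00053) in control kidneys. The call held in all 38 alternatives in each.

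Dnajc15, a J protein of the mitochondrial inner membrane, rose in Aprt KO kidneys under all 3 scalings (0.46, SE 0.14) and had 0.26 (SE 0.14, limma adjusted p 0.148) in control kidneys. Hspa9 was called in Aprt KO in the deposited signals (0.45, SE 0.13, 0.00961) but not under all 3, and had 0.28 (SE 0.13, 0.0994) in control kidneys. Hspd1 read 8641, 9477 and 10310 in 1-month Aprt KO kidneys, above all 7-day arrays (lowest 4577, median 6690, highest 7854), with a log2 fold change of 0.55 (SE 0.24) that did not pass (0.0804). In 1-month control kidneys it read 8081, 6225 and 11620, which overlapped the 7-day arrays (lowest 3448, median 6486, highest 7543), with 0.48 (SE 0.24, 0.128). Hspe1 had 0.38 (SE 0.17, 0.0868) in Aprt KO and 0.36 (SE 0.17, 0.112) in control kidneys. With the common median all 5 were called higher in both genotypes, beside 24.1% (Aprt KO) and 24.0% (control) of all probe sets. Quantile normalisation called 2 higher in Aprt KO and 1 in control kidneys, beside 16.4% and 16.0% of all. In the deposited signals 3 and 1 were called higher, beside 14.0% and 13.7%. Under all 3 scalings 2 of the 5 rose in Aprt KO and 1 in control kidneys, beside 12.8% and 12.3%. Proximal tubule markers moved with age, with 6 of 7 probe sets rising in Aprt KO and 5 of 7 in control kidneys under all 3 scalings, and a summed signal of 61020 to 77300 at 1 month against 23120 to 39370 at 7 days in Aprt KO, and of 60280 to 79640 against 31780 to 45970 in control kidneys. Their part in the mitochondrial values was not tested.

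In the cytosol, Dnajc13, a J protein of endosomes, rose in both genotypes. It read 633.6, 813.1 and 865.6 in 1-month Aprt KO kidneys, against 322.0, 409.4 and 538.0 (lowest, median and highest) at 7 days, with log2 fold changes of 0.78 (SE 0.17, limma adjusted p 0.00132) in Aprt KO and 0.75 (SE 0.17, 0.00176) in control kidneys. In Aprt KO kidneys Hsph1 (0.47, SE 0.13) and Hspa1a (0.42, SE 0.16) also rose under all 3 scalings and Fkbp1b, which stabilises calcium release channels, fell (-0.72, SE 0.19). In control kidneys these had 0.33 (SE 0.13), 0.15 (SE 0.16) and -0.48 (SE 0.19). The Hspa1a call in Aprt KO kidneys (limma adjusted p 0.048) was lost in 26 of 38 alternatives, with adjusted p up to 0.438. Fkbp5 rose in control kidneys (0.55, SE 0.16, limma adjusted p 0.0128) and had -0.22 (SE 0.16) in Aprt KO kidneys. Hspb8 was called lower at 1 month in both genotypes in the deposited signals (-0.64, SE 0.18, in Aprt KO and -0.51, SE 0.18, in control kidneys), but not under all 3 scalings.

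The subunits of the CCT ring, which folds actin and tubulin, had 0 probe sets called higher and 5 of 11 called lower at 1 month in Aprt KO, and 0 higher and 4 lower in control kidneys, in the deposited signals alone (23.8% and 24.6% of all probe sets were lower). Cct4 was the clearest, at 1582, 1776 and 1704 in 1-month Aprt KO kidneys against 1979, 2411 and 2897 (lowest, median and highest) at 7 days (-0.55, SE 0.13, limma adjusted p 0.00219), and with -0.61 (SE 0.13, 0.000914) in control kidneys. With quantile normalisation 4 and 3 were lower in Aprt KO and control kidneys (18.5% and 19% of all), and with the common median 0 and 0 in limma (13.1% and 14.3% of all). A change of the ring is thus not separable from the scaling. The cochaperone Bag2, outside the prefixes, fell under all 3 scalings by 1.09 (SE 0.12) in Aprt KO and 0.94 (SE 0.12) in control kidneys. Proliferation markers fell in 13 of 15 probe sets in each genotype under all 3 scalings, with a summed signal of 3541 to 4177 at 1 month against 9917 to 11960 at 7 days in Aprt KO, and of 3109 to 5066 against 10600 to 14800 in control kidneys. Their part in the CCT values was not tested.

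**Figure D4:**
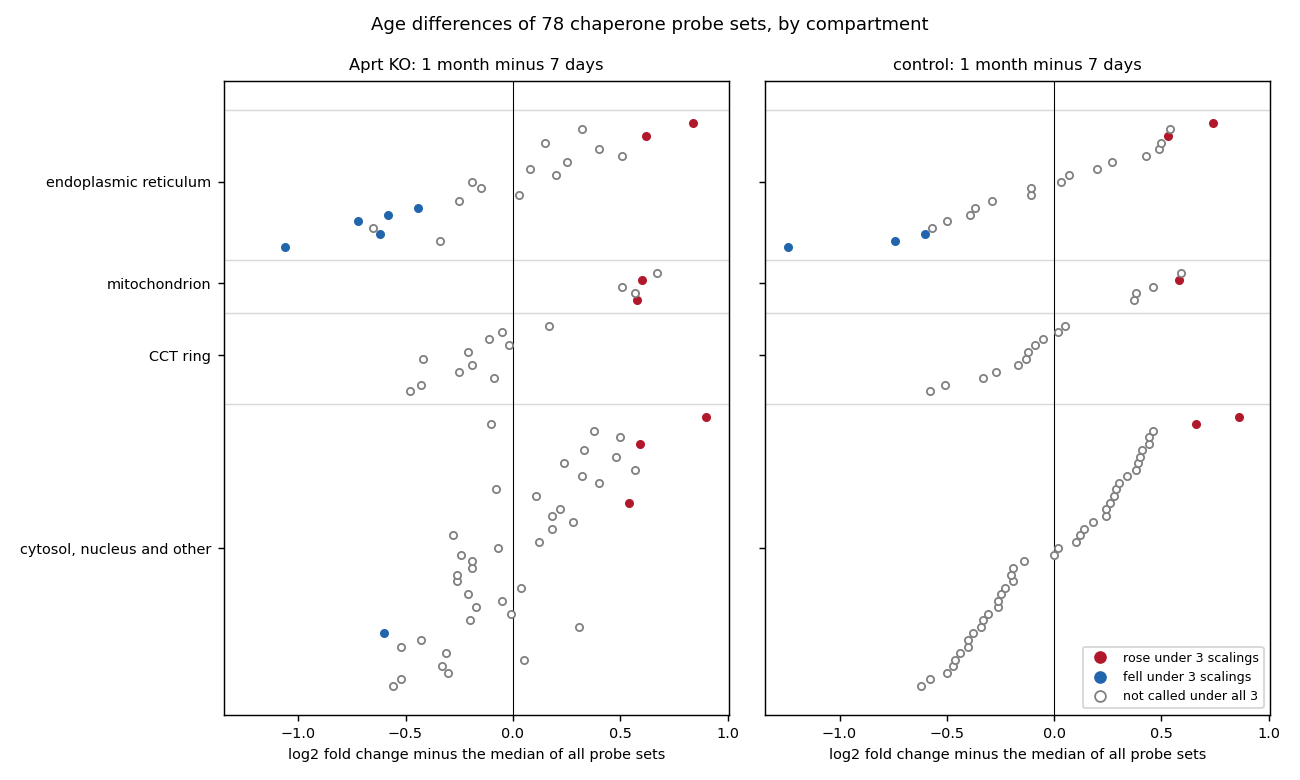
Log2 fold change between 1 month and 7 days for the 78 chaperone probe sets, less the median of all probe sets (-0.12 in Aprt KO on the left, -0.11 in control on the right), by compartment. Each row is the same probe set in both panels; red and blue points were called under all 3 scalings. The 5 mitochondrial points (above the filter) lie above 0 in both panels, while those of the endoplasmic reticulum spread to both sides.

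Where a gene had several probe sets above the filter (10 genes), their calls or signs differed in an age comparison for 8. For Pdia6 the third probe set had -0.31 (SE 0.15) in Aprt KO and -0.08 (SE 0.15) in control kidneys. For Hspa4, a nucleotide exchange factor of Hsp70, 4 probe sets ranged from -0.55 to 0.01 in control kidneys. For Dnajb6, which keeps aggregation-prone proteins soluble, 2 probe sets had -0.55 and 0.09 in Aprt KO kidneys. Such genes are uncertain.

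A few member promoters hold the motif of either inducible programme. RefSeq windows of 300 bases (250 before the annotated start, GRCm38.p6) were found for 62 of the 70 genes. Cct4, Dnajc11, Dnajc2, Dnajc5, Hsp90aa1, Hspa8, Hspa9 and Hspb2 had none. The endoplasmic reticulum stress element (CCAAT, 9 bases of any kind, then CCACG, on either strand) was in 4 of the 62 (6.45%), Hspa5, Hsp90b1, Pdia6 and Dnajc3, beside 0.137% of the 27025 genes with a window. These are 4 of the 15 member genes placed in the endoplasmic reticulum. They are printed because genes with 1 motif in common were not called alike with age. In Aprt KO kidneys Pdia6 fell in 2 of 3 probe sets, Dnajc3 rose in 1 of 3, and Hspa5 and Hsp90b1 did not pass. Capitals mark the element, and in Hsp90b1 the second match is on the opposite strand. The stretches are chr2:34771995-34772073 (plus), chr10:86705503-86705686 (minus), chr12:17266461-17266539 (plus) and chr14:118937797-118937875 (plus).
Hspa5: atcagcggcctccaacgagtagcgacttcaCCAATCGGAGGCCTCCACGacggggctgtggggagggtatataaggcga
Hsp90b1: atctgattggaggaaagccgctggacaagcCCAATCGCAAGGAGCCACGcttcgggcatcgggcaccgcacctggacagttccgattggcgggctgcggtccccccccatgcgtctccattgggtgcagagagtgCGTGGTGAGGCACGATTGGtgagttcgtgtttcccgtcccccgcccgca
Pdia6: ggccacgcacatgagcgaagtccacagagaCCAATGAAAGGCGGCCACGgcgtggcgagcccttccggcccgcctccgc
Dnajc3: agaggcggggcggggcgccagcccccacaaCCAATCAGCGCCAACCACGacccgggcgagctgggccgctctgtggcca

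The heat shock element, searched as 3 units of GAA and TTC in alternation with 2 bases of any kind between them (beginning with either unit, on either strand, overlaps allowed), was in 4 of the 62 windows (6.45%), of Hspd1, Hspe1, Dnajb6 and Hsph1, beside 0.662% of all. Hspd1 and Hspe1 lie head to head on chromosome 1 and share the stretch chr1:55088029-55088106, shown as read from the plus strand towards Hspe1, with the 2 overlapping matches in capitals. It is printed because both genes of this pair, a chaperonin and its lid, had positive log2 fold changes with age that did not pass (0.55 and 0.38 in Aprt KO kidneys). The stretch of Dnajb6 is chr5:29735822-29735894 (plus). A match describes the letters and not the binding of a factor. Only 3 complete units were counted, so looser elements and those outside the window were missed. The windows of Hspa1a, Hspa1b and Dnajb1 had no match by this rule.
Hspe1: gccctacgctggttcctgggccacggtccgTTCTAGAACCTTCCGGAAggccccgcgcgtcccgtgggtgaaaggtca
Dnajb6: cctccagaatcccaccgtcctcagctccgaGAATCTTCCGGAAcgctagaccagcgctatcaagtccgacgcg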

How the data were processed

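Biotin-labelled cRNA of total kidney RNA was hybridised, per the labels' protocols. Per the submitters' processing notes, the authors used GCOS and MAS5, and the deposited table holds linear intensity values. Which versions and scaling target they used is not given here. Depth does not apply to arrays, and their number, 3 or 6 in a group, limits the precision.

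No further normalisation was done. Each signal had 29 added, near the 20th percentile of the table, before log2 was taken, so fold changes of dim genes are understated. Non-control probe sets with a mean signal of 118.6 or more (7464 of 12422) were fitted jointly (18 arrays) by limma 3.58.1 under R 4.3.3, using lmFit and trended eBayes. Terms were the 4 groups and sex within each age, which compares the ages at an equal mix of the sexes. There were 12 residual degrees of freedom. The 5 two-sided comparisons were adjusted by Benjamini-Hochberg over all 7464, and called under 0.05. The fit was tested on simulated data. The labels name each littermate, and after removal of group means littermates correlated at 0.235 to 0.683 (9 pairs). Each limma p-value sets a difference against the spread between mice within groups, pooled over the 4 groups. In the blocked fit that spread is of the differences within pairs.

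Genes were named where called with genotype or in the interaction, among the 12 largest rises and 12 largest falls with age, on a fixed list of well-known chaperones (Hspa5 and Hspd1 among them), where probe sets of 1 gene disagreed, and up to 6 called genes per companion list. The rule also takes the dimmest and brightest member of each family, which were not described, since signals of different probe sets cannot be compared. Bag3, Dnajc15, Dusp1, Fkbp1b, Fkbp4, Grpel1, Hspa4, Hspa9, Hspb2, Hspb8, Hspe1, Klf9, Mt1, Mt2, Per1, Sgk1 and Xbp1, where this rule does not name them in a comparison, were chosen after their values were seen. Members and lists were chosen with earlier results of these data known, and the compartments were assigned from textbook knowledge after the values were seen, so that counts by compartment are descriptions. 2 probe sets of Dnajc19 with several symbols were left out. Of the members, 24 of 95 have a probe set suffix (s, f, g, i or r) that marks less specific or fewer probes. Sequences are RefSeq promoters of GRCm38.p6. The alternatives tried were the pseudocount, the filter, quantile and common-median scaling, the sex term, the litter block (fixed or random), the brightest probe set per gene, eBayes without a trend, and leaving out single arrays, pairs or the 4 arrays with discordant Aprt. Figures were drawn with matplotlib 3.10.9.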

Additional observations from a re-analysis of the deposited data

Results flagged for a closer look

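In 3 of 114 groups of 6 arrays looked at, 1 array lay far from the others of its group. Chance flags about 1 in 20 groups, more than were seen here. For Fkbp1b the 7-day Aprt KO of pair 2 read 739.3, and the next highest of that group was 589.2. For Fkbp9 the 7-day Aprt KO of pair 4, a pair whose arrays stood apart in their brightest signals, read 1300, and the next lowest was 1736. For Hspbp1 the 7-day Aprt KO of pair 3 read 398.5, and the next lowest was 595.5. Its control littermate read 417.1, also the lowest of its group.

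The estimated genotype effect on Fkbp5 had opposite signs at the 2 ages. In the main fit it was called at 7 days and not at 1 month, and the interaction was not called, so a reversal was not established. The Aprt KO mouse was higher in 6 of 6 pairs at 7 days and lower in 3 of 3 pairs at 1 month, and the effect at 1 month minus that at 7 days was -0.78 on the log2 scale (limma adjusted p 0.285). The adjusted p ran from 0.0108 to 1 over 39 alternatives, and passed 0.05 only in the 2 with the litter pair as a block (fixed, 0.0207, and random, 0.0108). In control kidneys Fkbp5 averaged 786.1 ± 261 at 1 month (SD, n = 3) and 473.7 ± 80.1 at 7 days (SD, n = 6), and the 1-month values of either genotype spread more widely than the 7-day values.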

How the results depend on the processing

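In all, 39 alternatives were run, and 0 of the called changes reversed. The 1 call between Aprt KO and control at 7 days became 0 without the sex term and 0 without the 4 arrays with discordant Aprt, and 3 with the litter pair as a fixed or a random replicate block. Leaving out arrays or pairs gave 0 to 1, with 0 without pair 4. At 1 month these gave 0 to 0. The interaction gave 1 with the fixed and 1 with the random block, and 0 to 0 when arrays or pairs were left out. With age, the 24 calls in Aprt KO became 10 without the 4 arrays, and ran from 11 (without the 1-month Aprt KO female of pair 7) to 29 when arrays or pairs were left out. The 25 in controls ran from 9 (without the 1-month control female of pair 7) to 26, with 16 without the male of pair 8. Without pair 4 there were 24 in Aprt KO and 26 in control kidneys. Leaving out pair 7 as a whole left no female at 1 month, so males were compared there, with 16 and 18 calls. Scaling changed the directions with age, as given above: the share of calls higher at 1 month was 33.3% as deposited, 35.7% by quantiles and 73.9% by a common median in Aprt KO (37.1%, 47% and 64.9% over all probe sets), and 20%, 44% and 86.4% in control kidneys (35.8%, 45.7% and 62.7%). Of 23 named age calls in each genotype, 6 in Aprt KO and 5 in control kidneys held under every alternative. The blocked fit called 564 of all probe sets at 7 days instead of 204, and 91 instead of 15 at 1 month, and changed no other genotype call of a member. Without the filter the age counts were 22 in Aprt KO and 24 in control kidneys: dim Dnajb3 (-0.67 in Aprt KO, -0.95 in control kidneys) and Hspa2 (-1.0 in control kidneys) were called, while others, Hspa1a in Aprt KO and Dnajc3 in control kidneys among them, were lost. Members near background, such as Hspb1, allow no statement.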
